A study of Homo sapiens with 6 samples.

Results

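The SR protein and hnRNP genes encode the main families of RNA-binding proteins that choose which exons are kept in a messenger RNA. They were taken as all protein-coding genes whose symbol is SRSF followed by a number, TRA2A or TRA2B, or begins with HNRNP. This gave 40 of the 62700 genes in the count tables: 12 SRSF genes, the 2 TRA2 genes and 26 HNRNP genes. A further 123 gene IDs had matching symbols but are pseudogenes, 74 of them copies of HNRNPA1, and were left out. RNA sequencing was done on OVCAR8, an established human ovarian carcinoma cell line labelled wild type. All cells had been serum starved overnight. The control group then received PBS and the other group leptin, an adipocyte hormone, at 100 ng/ml for 24 h, with 3 libraries in each group. The stated aim concerned which genes act after leptin in keeping ovarian cancer cells stem-like.

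SR proteins carry RNA recognition motifs and a tail rich in arginine and serine. They bind enhancer sequences in exons and recruit the splicing machinery, and kinases of the SRPK and CLK families control them by phosphorylating the tail. The hnRNPs coat nascent transcripts, often repress exons, and many also act in export, stability or translation of messenger RNA. Many genes of both families limit their own level by splicing in a poison exon that sends the transcript to nonsense-mediated decay. The counts here are sums per gene, so such isoforms were not resolved.

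Libraries held between 15609425 and 18577775 counts assigned to genes. Whether replicates came from separate cultures is not stated, and every p-value here reflects only how these libraries differ, possibly for technical reasons. On principal component 1, with 49.6% of the variance, leptin replicate 1 lay between the groups, with a score of -2.15. Scores of the controls ran from -31.0 to -23.6, and those of the remaining leptin libraries were 46.3 (replicate 2) and 39.6 (replicate 3). On principal component 2, with 18.6% of the variance, leptin replicate 1 lay apart from every other library, at 40.0 against -19.65 to 6.13. Of 9 epithelial and ovarian carcinoma markers 8 were tested. KRT8, KRT18 and PAX8 were abundant, with PAX8 between 354 and 370.3 CPM (counts relative to the TMM-scaled library total), while MUC16 and CDH1 were under 1 CPM in every library. The summed level of 7 immune markers lay between 0.0621 and 0.264 CPM in controls and between 0.119 and 0.231 CPM with leptin, and CD3E, HLA-DRA and PTPRC had 0 counts. Summed levels of 9 epithelial and ovarian markers were 3171 to 3456 CPM in controls and 3526 to 3931 CPM with leptin. Of the 8 tested, 6 had positive and 2 negative log2 fold changes, and only KRT19 passed. It fell from 102 ± 9.63 to 38.7 ± 0.967 CPM (SD, n = 3, edgeR adjusted p = 0.000139). KRT7 stood at 332 ± 44.3 and 547 ± 238 CPM, with overlapping groups, and did not pass (edgeR adjusted p = 0.166). Summed levels of 7 fibroblast markers were 461.7 to 657.7 CPM in controls and 359.1 to 522.6 CPM with leptin. Most of this was COL1A1, at 562 ± 100 and 421 ± 78.0 CPM. The other fibroblast markers stood at 9.28 CPM or below in every library. Of the 7, 2 had positive and 5 negative log2 fold changes. Summed levels of 5 endothelial markers were 3.16 to 3.98 and 1.94 to 2.998 CPM. No fibroblast or endothelial marker passed the test. The part of these markers in the results below was not tested.

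Of the 40 genes, 35 passed the filter on low counts and were tested: all 14 SRSF and TRA2 genes and 21 HNRNP genes. Every tested gene had at least 142 counts in every library. The other 5, HNRNPA1L2, HNRNPCL1, HNRNPCL2, HNRNPCL3 and HNRNPCL4, are copies of HNRNPA1 or HNRNPC. HNRNPCL1 and HNRNPCL2 each had 1 count over all 6 libraries, and the remaining 3 had 0. A count of 0 allows up to 3 counts, or 0.158 to 0.2 CPM depending on the library, for counting error only. This limit does not hold for HNRNPA1L2. It shares 100% of its exon length with another gene, and read pairs over several genes were not counted. HNRNPA1L3, also a copy of HNRNPA1, did have counts (24.5 to 46.9 CPM). Reads that map to several places were not counted, so the split between HNRNPA1 and its copies is uncertain.

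The 35 tested genes were among the more abundant messenger RNAs of these cells. Per kilobase of merged exon length, their control levels had a median of 24.4 CPM per kb, against 3.57 over all tested genes, and 34 of the 35 lay above that value. HNRNPF, which binds G-rich sequences, was highest at 104 CPM per kb. HNRNPK, a poly(C)-binding protein gene, followed at 98.1 CPM per kb, and HNRNPA1, a classical exon repressor, at 92.9. SRSF2 led the SR genes at 77.4 CPM per kb, ahead of SRSF3 at 44.3. SRSF12 was lowest at 1.98 CPM per kb. Merged exon length counts every annotated exon, so genes with long alternative exons, such as HNRNPU (22512 bp) and TRA2B (13084 bp), come out low on this scale.

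**Figure D1:**
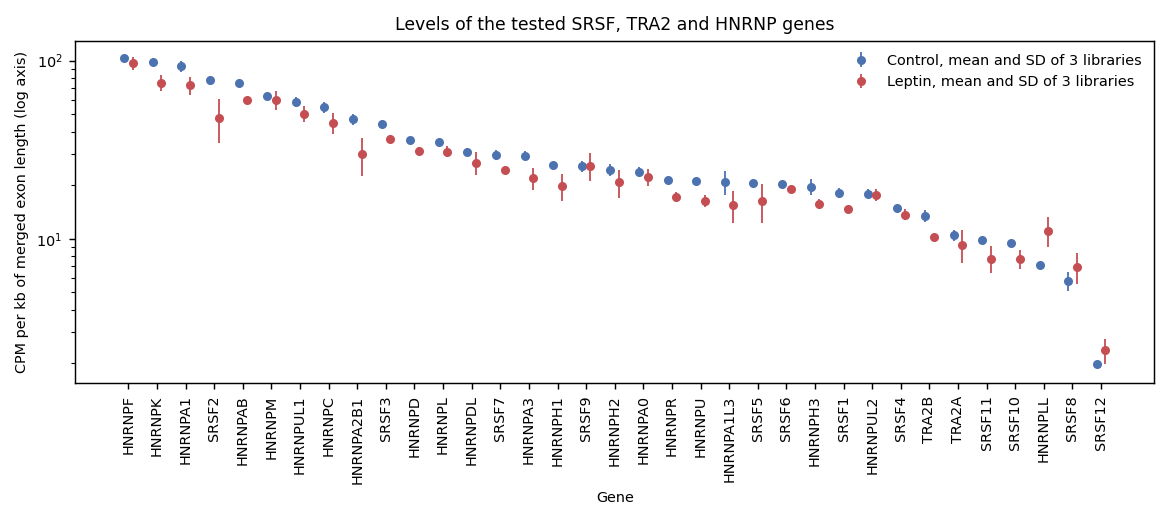
Control and leptin levels of the 35 tested genes in CPM per kb of merged exon length on a log axis, as mean and SD of 3 libraries. Control means run from 104 (HNRNPF) to 1.98 (SRSF12), and for most genes the leptin mean lies a little below the control mean.

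With leptin, 3 of the 35 genes fell and 1 rose at an adjusted p under 0.05 (edgeR's quasi-likelihood test, Benjamini-Hochberg over all 15685 tested genes). SRSF2, HNRNPA2B1 and TRA2B fell, and HNRNPLL rose. The share that fell was 8.57%, against 4.09% of all tested genes, and the share that rose was 2.86%, against 5.71%. No gene of the set changed 2-fold: log2 fold changes ran from -0.70 to 0.64. In bulk RNA, fewer cells of a kind and less RNA per cell cannot be told apart.

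SRSF2, an SR protein that stays in the nucleus and recognises a wide range of exonic enhancers, stood at 242, 217 and 232 CPM in control replicates 1, 2 and 3. With leptin it stood at 184, 107 and 135 CPM. All leptin libraries lay below all controls, and leptin replicate 1 lay closest to them. The log2 fold change was -0.70 ± 0.17 (SE; edgeR adjusted p = 0.0291). MFSD11, on the opposite strand, accounts for most of the 27.7% of SRSF2 exon length that other genes share; pairs there were left uncounted, as for the 18 of 40 genes that share exon bases.

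HNRNPA2B1, which encodes an abundant exon repressor that also sorts RNAs for transport, stood at 594, 549 and 636 CPM in controls. In leptin replicates 1, 2 and 3 it stood at 479, 307 and 341 CPM. The groups did not overlap, and again leptin replicate 1 was nearest to the controls. The fitted difference was -0.66 ± 0.16 on the log2 scale (edgeR adjusted p = 0.0294).

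TRA2B, an SR-like activator that binds GA-rich exonic enhancers, stood at 190.2, 164 and 174 CPM in controls and at 134, 139 and 130.4 CPM with leptin. Here the 3 leptin libraries lay close together, all below the controls. The log2 fold change was -0.39 ± 0.10 (edgeR adjusted p = 0.0411).

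HNRNPLL, the HNRNPL-like regulator known for the switch of CD45 isoforms in lymphocytes, rose instead. It stood at 42.0, 43.0 and 42.5 CPM in controls and at 51.5, 72.8 and 73.8 CPM with leptin. The controls were nearly identical, and every leptin library lay above them, replicate 1 least so. The log2 fold change was 0.64 ± 0.14 (edgeR adjusted p = 0.0206).

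**Figure D2:**
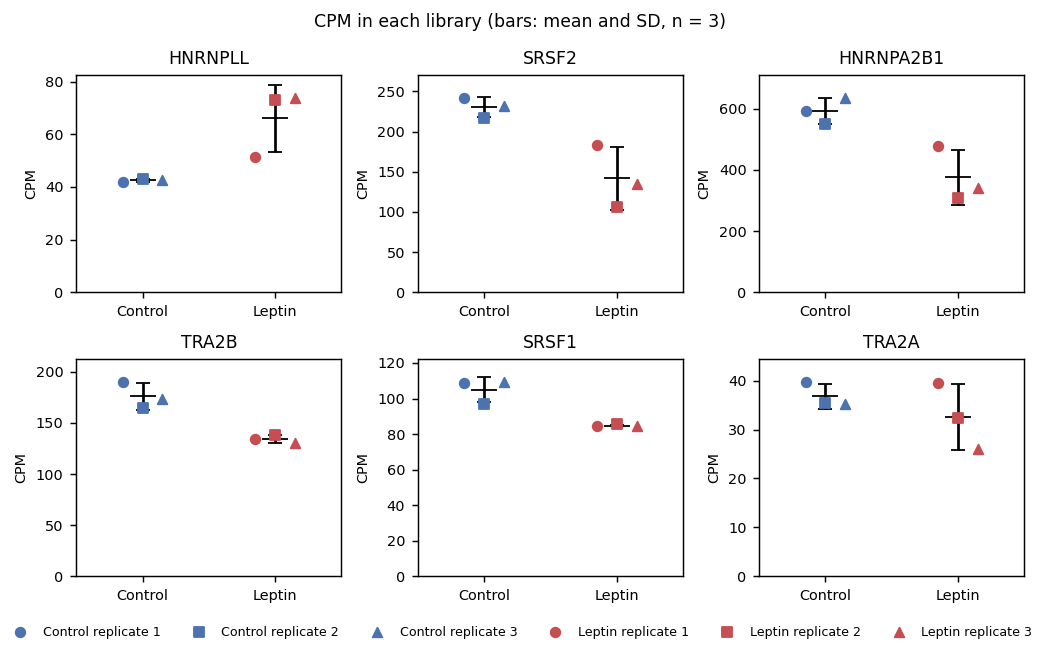
CPM in each of the 6 libraries (points) with the mean and SD of each group (bars) for the 4 genes past the threshold and for SRSF1 and TRA2A. Leptin libraries of HNRNPLL lie above 51 CPM and controls at or below 43.0 CPM; TRA2A overlaps between groups.

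The 40 genes lie on 18 chromosomes. HNRNPLL (chromosome 2, 38561969 to 38603586, hg38, minus strand) lies about 140 kb from SRSF7 (38743599 to 38751494, minus strand). Of these neighbours HNRNPLL passed, at 0.64, and SRSF7 did not, at -0.28. HNRNPD and HNRNPDL lie 48.1 kb apart on chromosome 4. SRSF2 lies on chromosome 17 at 76734115 to 76737333, HNRNPA2B1 on chromosome 7 at 26171151 to 26201529 and TRA2B on chromosome 3 at 185914558 to 185938103, all on the minus strand.

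Sequences before the RefSeq gene starts (GRCh38.p14) are shown for the gene that rose, for TRA2B, which fell with the closest leptin libraries, and for HNRNPAB, which passed with DESeq2, with total counts, without leptin replicate 1 or with the GC trend removed. Only the longest run of the 250 bases before the start that no annotated exon covers is printed, 5′ to 3′ on the gene's strand. It spans bases 239 to 109 before the start in HNRNPLL, 250 to 90 in TRA2B and 159 to 1 in HNRNPAB. Bases next to the start are thus shown for HNRNPAB only. The HNRNPLL stretch lies inside the annotated span of that gene given above. Capitals mark matches, on either strand, to the 7 motifs searched. The TATA box was searched as TATAAA. The box bound by the trimeric factor known as NF-Y was searched as CCAAT, and the box of the zinc finger factor SP1 as GGGCGG. The E-box, which factors such as MYC and USF recognise, was searched as CACGTG. The element of STAT dimers, which signal below the leptin receptor, was searched as TTCNNNGAA. The composite element of ATF4 with its C/EBP partners was searched as TGATGCAA, and the core element of the E2F family as GCGGGAA. Matches of the E2F and SP1 elements can overlap, as they do once in HNRNPLL.
HNRNPLL, chr2:38603037-38603167, minus strand: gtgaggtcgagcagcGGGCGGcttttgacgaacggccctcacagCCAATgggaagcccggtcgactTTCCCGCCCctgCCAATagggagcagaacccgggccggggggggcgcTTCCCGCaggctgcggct
TRA2B, chr3:185938104-185938264, minus strand: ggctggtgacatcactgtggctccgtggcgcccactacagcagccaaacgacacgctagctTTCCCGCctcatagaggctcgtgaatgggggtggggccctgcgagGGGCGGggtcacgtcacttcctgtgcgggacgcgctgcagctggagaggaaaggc
HNRNPAB, chr5:178204374-178204532, plus strand: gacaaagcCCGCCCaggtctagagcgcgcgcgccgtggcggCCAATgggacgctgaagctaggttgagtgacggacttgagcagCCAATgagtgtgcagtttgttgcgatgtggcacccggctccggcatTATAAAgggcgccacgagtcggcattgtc

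The HNRNPLL stretch holds 2 CCAAT and 2 GCGGGAA matches and is 70.2% GC. The TRA2B stretch holds 1 GCGGGAA and no CCAAT, and the HNRNPAB stretch has a TATAAA match 29 bases before the start. Windows of 250 bases before to 50 after a start were in the table for 31 of the 35 tested genes (45 windows, since some genes have several starts); HNRNPA1, HNRNPA1L3, SRSF2 and TRA2A had none. GCGGGAA was in 28.9% of these windows and in 9.43% of the 16389 windows of all tested genes, and CCAAT in 48.9% and 34.4%. CACGTG was in 17.8% and 9.09%, TATAAA in 13.3% and 6.32%, and GGGCGG in 62.2% and 65.4%. TTCNNNGAA was in 2 of the 45 windows, those of HNRNPH1 and HNRNPR (6.19% of the windows of all tested genes), and TGATGCAA in 0 of 45 (0.537%). GCGGGAA was in windows of both HNRNPLL, which rose, and HNRNPA2B1 and TRA2B, which fell. A match is a run of letters and not a measured binding site, and windows of the same gene overlap.

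These 4 calls rest on few libraries. Without leptin replicate 1, 22 genes of the set fell and 2 rose (62.9% lower), where 13.5% of all genes tested in that fit fell and 16.0% rose. Without Control replicate 1, 2 or 3, or leptin replicate 2 or 3, edgeR called 0 genes of the set in either direction. These fits called few genes of any kind. Of all genes tested in them, 0.371% to 2.32% fell. Those that rose numbered from 55 of 16176 (without Control replicate 1) to 410 of 16292 (without leptin replicate 2). At an unadjusted p under 0.05 these fits gave 7 to 18 genes of the set lower and 1 higher. No share of all tested genes is given for these unadjusted counts. The highest adjusted p in the leave-outs was 0.119 for HNRNPLL, 0.146 for SRSF2 and 0.225 for TRA2B, all without Control replicate 1, and 0.149 for HNRNPA2B1 without Control replicate 3. With DESeq2, 9 genes of the set were lower and 1 higher, where 5.6% and 8.52% of its tested genes were. The 6 beyond the edgeR calls were HNRNPA1, HNRNPA3, HNRNPAB, HNRNPH1, HNRNPK and HNRNPU.

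Most of the remaining genes had small negative differences that did not pass the test. Of the 35 genes 31 (88.6%) had a negative log2 fold change, against 49.2% of all tested genes, and the median was -0.28 against 0.01 over all tested genes. For 21 genes (60%) every leptin library lay below every control, which held for 16.2% of all tested genes. HNRNPLL alone lay entirely above, as 16.0% of all tested genes did. Without leptin replicate 1, 27 of the 35 lay below every control, against 27.0% of all tested genes. The median difference from the control mean was -0.17, -0.33 and -0.28 in leptin replicates 1, 2 and 3 on the log2 scale, and between -0.05 and 0.03 in the controls. The summed level of the SRSF and TRA2 genes was 1605 to 1708 CPM in controls and 1245 to 1422 CPM with leptin. That of the HNRNP genes was 5531 to 5887 CPM and 4359.6 to 5068 CPM.

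**Figure D3:**
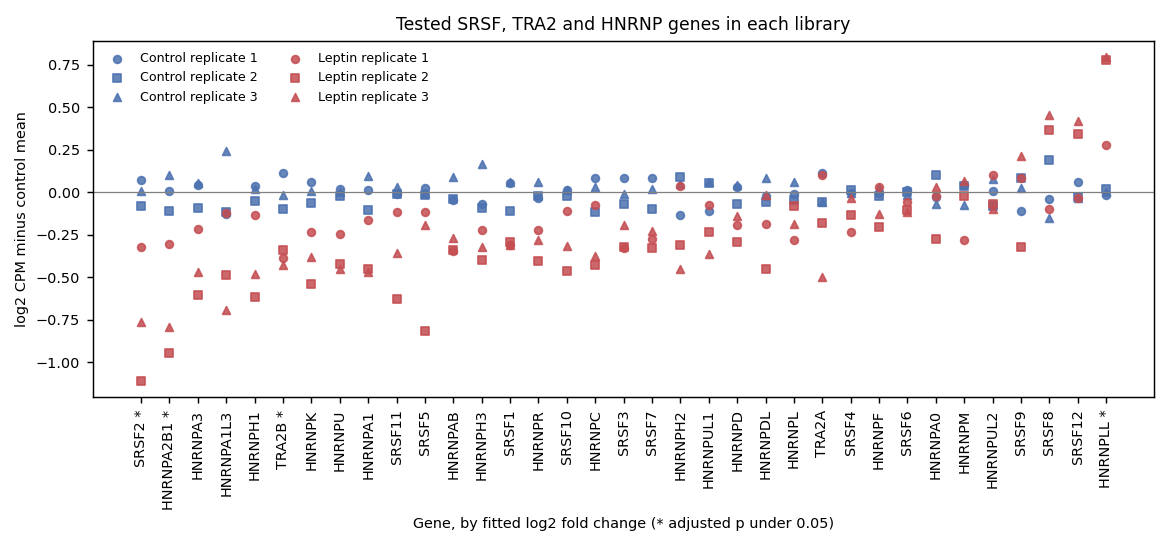
log2 CPM minus the control mean for each tested gene in each library, ordered by fitted log2 fold change, with asterisks on genes past an adjusted p of 0.05. Most red leptin points lie below 0, those of SRSF2 and HNRNPA2B1 lowest, and those of HNRNPLL, SRSF12 and SRSF8 are at the right.

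Among the SR genes, SRSF1, the founding member and a proto-oncogene, stood at 109, 96.8 and 109 CPM in controls and at 84.5, 85.4 and 84.6 CPM with leptin. The leptin libraries were almost equal to each other and all below the controls, but the difference did not pass (log2 fold change -0.31 ± 0.10, edgeR adjusted p = 0.0772), and 35.1% of its exon length is shared with other genes. SRSF3, which also links splicing to messenger RNA export, stood at 316 ± 16.8 and 259.6 ± 13.6 CPM (mean ± SD, n = 3 each). SRSF7, another SR protein with a role in export, stood at 120 ± 7.68 and 98.4 ± 3.48 CPM. Neither passed (edgeR adjusted p = 0.117 and 0.104), though in both genes all leptin libraries lay below all controls. SRSF10, a splicing repressor when dephosphorylated, stood at 112 ± 1.46 and 91.6 ± 11.3 CPM. SRSF11 stood at 84.0 ± 1.40 and 65.6 ± 11.5 CPM, and SRSF5, which is itself known to respond to growth signals, at 111 ± 1.71 and 87.3 ± 21.5 CPM. In these genes the controls were tight and the leptin libraries spread; SRSF5 was 102 CPM in leptin replicate 1 and 62.7 CPM in replicate 2.

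SRSF4 and SRSF6, close relatives with long arginine-serine tails, showed smaller differences. SRSF4 stood at 132 ± 0.985 and 120.4 ± 8.40 CPM, and SRSF6 at 99.0 ± 1.06 and 92.8 ± 2.18 CPM (edgeR adjusted p = 0.440 and 0.576). SRSF9 stood at 101 ± 7.02 and 102 ± 18.7 CPM, with overlapping groups; 46.7% of its exon length is shared with other genes, mostly GATC on the opposite strand. SRSF8, an SRSF2-like gene, and SRSF12, a relative of SRSF10, had positive differences that did not pass. SRSF8 stood at 24.2, 28.5 and 22.4 CPM in controls and 23.2, 32.1 and 34.2 CPM with leptin (log2 fold change 0.25 ± 0.16, edgeR adjusted p = 0.337). SRSF12 stood at 9.38, 8.82 and 8.76 CPM and at 8.76, 11.4 and 12.1 CPM (0.26 ± 0.17, edgeR adjusted p = 0.360). In both genes leptin replicate 1 lay among the controls or level with the lowest, and replicates 2 and 3 lay above them.

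TRA2A, the paralog of TRA2B, stood at 39.8, 35.3 and 35.3 CPM in controls and at 39.4, 32.4 and 26.0 CPM with leptin. Its groups overlapped and the difference did not pass (log2 fold change -0.17 ± 0.15, edgeR adjusted p = 0.491). In 6 genes whose leptin libraries lay below every control, the leptin libraries were within 0.15 of each other on the log2 scale: SRSF1, SRSF3, SRSF6, SRSF7, HNRNPAB and TRA2B. That limit was set after the values were seen. In SRSF2 and HNRNPA2B1 the leptin libraries were spread over 0.79 and 0.64.

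Among the HNRNP genes of the A/B group, HNRNPA1 stood at 627, 578 and 662 CPM in controls and at 554, 454 and 449.5 CPM with leptin. The groups did not overlap, but the difference did not pass (log2 fold change -0.36 ± 0.12, edgeR adjusted p = 0.0905). HNRNPA3 came closest to the threshold among the genes that missed it, at 192 ± 10.8 and 143 ± 19.8 CPM (-0.43 ± 0.12, edgeR adjusted p = 0.0504). Of its exon length 54.8% is shared with other genes, mostly NFE2L2 on the opposite strand. HNRNPAB, a relative of HNRNPD, stood at 153, 154 and 169 CPM in controls and at 125, 125 and 131 CPM with leptin. It missed the threshold too (-0.32 ± 0.10, edgeR adjusted p = 0.0673). HNRNPA0, by contrast, stood at 207 ± 13.1 and 195 ± 21.3 CPM, with overlapping groups. HNRNPD, or AUF1, which binds AU-rich elements and promotes decay, stood at 252 ± 10.7 and 218 ± 11.6 CPM (edgeR adjusted p = 0.225). Its neighbour HNRNPDL stood at 170.0 ± 8.93 and 147 ± 21.8 CPM (edgeR adjusted p = 0.309).

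HNRNPU, which binds chromatin-associated RNA and DNA, stood at 484, 471 and 478 CPM in controls and at 403, 357 and 349 CPM with leptin (log2 fold change -0.37 ± 0.11, edgeR adjusted p = 0.0556). HNRNPK stood at 581, 534 and 562 CPM and at 475, 384 and 429 CPM (-0.38 ± 0.12, edgeR adjusted p = 0.0646). In both genes the groups were apart by more than the spread of the controls, yet neither passed. HNRNPC, which packages nascent transcripts and binds U-tracts, stood at 399 ± 28.5 and 327 ± 44.4 CPM, and leptin replicate 1, at 378 CPM, lay within the controls. HNRNPR stood at 185 ± 6.55 and 150.2 ± 9.58 CPM (edgeR adjusted p = 0.0868).

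The F/H group, which binds G-runs, was uneven. HNRNPH1 stood at 247 ± 8.30 and 187 ± 33.0 CPM and HNRNPH3 at 105 ± 10.8 and 84.5 ± 5.17 CPM (edgeR adjusted p = 0.0788 and 0.0929). HNRNPH2 stood at 56.0 ± 4.44 and 47.6 ± 8.55 CPM. HNRNPF stood at 339.8, 336 and 347 CPM in controls and at 347, 295 and 312 CPM with leptin, with leptin replicate 1 just above the highest control (-0.10 ± 0.11, edgeR adjusted p = 0.600). HNRNPM, a regulator of splicing in epithelial-mesenchymal transition, stood at 354 ± 15.6 and 337 ± 41.2 CPM. HNRNPUL2 stood at 97.0 ± 5.39 and 95.5 ± 7.25 CPM, and 44.3% of its exon length lies in a readthrough gene with BSCL2. HNRNPL, which binds CA repeats, stood at 227 ± 8.55 and 200.3 ± 14.2 CPM, and HNRNPUL1 at 393 ± 26.3 and 337 ± 33.5 CPM; neither passed (edgeR adjusted p = 0.295 and 0.249).

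Ratios of related genes within a library do not depend on library scaling. The pairs were compared after the values above were known. HNRNPLL had 0.187, 0.195 and 0.180 counts per count of HNRNPL in controls and 0.276, 0.339 and 0.370 with leptin, a log2 difference of 0.80. All leptin libraries lay above all controls. SRSF12 relative to SRSF10 stood at 0.0802 ± 0.00275 and 0.120 ± 0.0307 (log2 difference 0.54). Its leptin replicate 1, at 0.0845, lay just above the highest control, at 0.0831, and replicates 2 and 3 stood at 0.141 and 0.134. HNRNPA3 relative to HNRNPA2B1 stood at 0.324 ± 0.00940 and 0.386 ± 0.0369, and HNRNPUL1 relative to HNRNPU at 0.823 ± 0.0640 and 0.910 ± 0.0317. In these 4 of 11 pairs the groups did not overlap. Each had an exact two-sided permutation p of 0.1, the smallest that 3 libraries against 3 can give, and 0.275 after adjustment over the 11 pairs. The ratios were not corrected for GC content, which was 56.3% for HNRNPUL1 and 37.9% for HNRNPU. Log2 fold changes of HNRNPUL1 and HNRNPU were -0.22 and -0.37. With the GC trend removed they were -0.33 and -0.23, the opposite order. In the other pairs without overlap the order stayed the same. Ratios with the GC trend removed were not tested. SRSF8 relative to SRSF2 stood at 0.126 in leptin replicate 1, inside the control range of 0.0969 to 0.131, and at 0.301 and 0.253 in replicates 2 and 3. The ratio of SRSF7 to SRSF3 was 0.379 ± 0.00754 in controls and 0.379 ± 0.0109 with leptin, and that of HNRNPDL to HNRNPD 0.675 ± 0.0231 and 0.673 ± 0.0650.

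**Figure D4:**
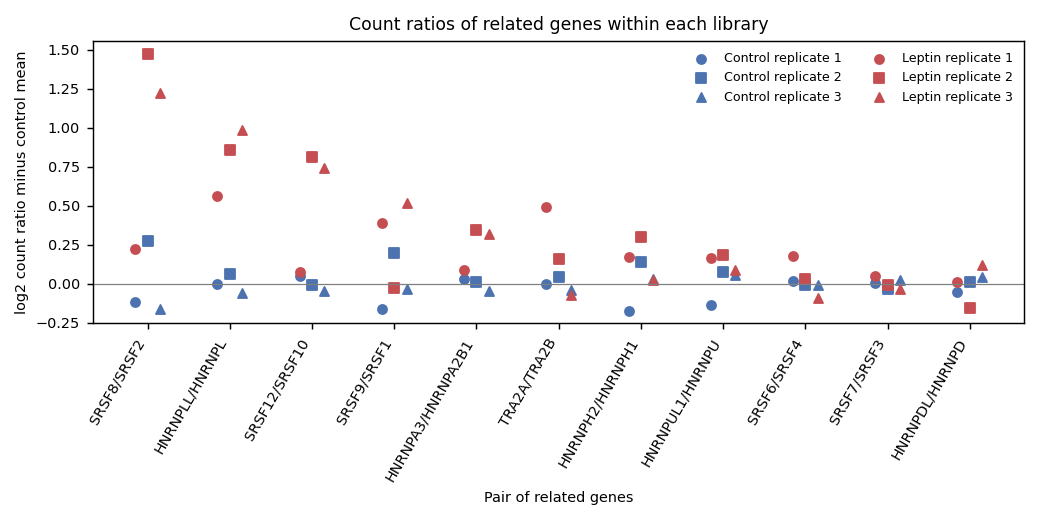
log2 count ratio of 11 pairs of related genes in each library, minus the control mean of that pair. Leptin points lie above all controls for HNRNPLL/HNRNPL, SRSF12/SRSF10, HNRNPA3/HNRNPA2B1 and HNRNPUL1/HNRNPU, and the points of SRSF7/SRSF3 lie together.

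The genes of the set have GC-poor transcripts. Their median GC content (longest transcript) was 41.1%, against 48.4% over all tested genes, and 30 of the 35 lay below the latter. In these libraries fold changes followed GC content. Spearman's rho over the tested genes, which are not independent of each other, was 0.395. The median log2 fold change ran from -0.13 in the GC quintile with least GC to 0.30 in that with most. The 16 genes of the set in the lowest quintile had a median of -0.30, and the 13 in the next quintile -0.28, against -0.10 over all tested genes there. The 2 in the third quintile had a median of -0.14, against -0.03 over all tested genes there. For the 4 in the fourth it was -0.15, against 0.08. The quintile with most GC held 0 genes of the set. Within the set of 35 genes Spearman's rho was 0.171. After removal of each library's GC trend the median of the set was -0.15, and 29 of 35 differences were negative. HNRNPLL still rose (0.77, edgeR adjusted p = 0.0131), as 2.72% of all tested genes did. HNRNPAB, at 54.2% GC, now fell (-0.38, edgeR adjusted p = 0.0416), as 2.82% of all tested genes did. SRSF2 (-0.61, edgeR adjusted p = 0.0533), HNRNPA2B1 (-0.53, 0.0758) and TRA2B (-0.26, 0.130) no longer passed. These calls changed again with the replicate number as a block beside the GC trend: SRSF2 (edgeR adjusted p = 0.0179), HNRNPA2B1 (0.0493) and HNRNPLL (0.00614) passed, and HNRNPAB (0.0726) and TRA2B (0.224) did not.

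**Figure D5:**
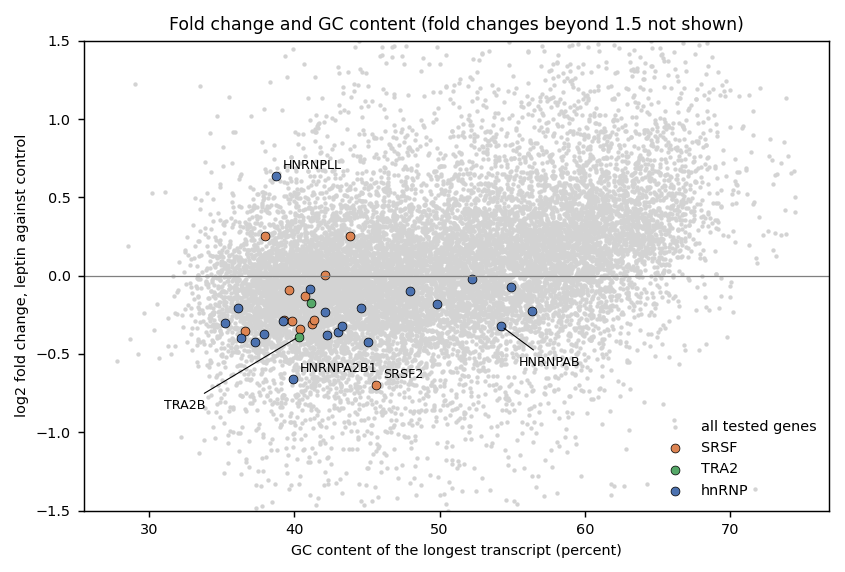
log2 fold change with leptin against GC content of the longest transcript, for all tested genes (grey) and the 35 genes of the set (coloured by family). The coloured points gather at low GC, mostly below 0, and HNRNPLL stands above them at 0.64.

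Other genes of the splicing pathway were read from lists. Of 35 tested genes for proteins of the spliceosomal snRNPs, 3 fell and 0 rose (edgeR; median log2 fold change -0.14): PRPF4, of the tri-snRNP, from 47.9 ± 3.05 to 34.8 ± 1.22 CPM (mean ± SD, n = 3 each, as for the genes that follow), SNRPA1, of the U2 snRNP, from 34.7 ± 3.98 to 19.7 ± 6.83 CPM, and LSM5, of the ring that binds U6, from 34.9 ± 1.63 to 25.4 ± 2.86 CPM. Of 24 genes of branch point and 3′ splice site recognition, 3 fell and 0 rose (median -0.11). SF3B3, of the U2-bound SF3 complexes, averaged 229 ± 3.91 CPM in controls and 169.5 ± 19.3 with leptin. SF3A3, also of SF3, averaged 97.2 ± 2.20 and 76.5 ± 2.53 CPM, and the helicase gene DHX15 averaged 114 ± 7.87 and 83.0 ± 13.9 CPM.

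Of 38 genes of SR protein kinases, phosphatases, importers and SR-related coactivators, 5 fell and 1 rose (median -0.16). PNN, a pinin gene of the exon junction complex periphery, fell from 53.1 ± 3.79 to 32.1 ± 6.10 CPM, LUC7L, a U1-associated factor, from 38.4 ± 3.60 to 26.0 ± 3.26 CPM, and BCLAF1 from 118 ± 3.50 to 83.1 ± 14.9 CPM. The gene that rose was SRRM3, chosen here after its values were seen, from 8.73 ± 1.64 to 13.5 ± 1.61 CPM. None of the SRPK and CLK kinase genes passed; SRPK1, also chosen after its values were seen, came closest, at 46.7 ± 3.39 and 35.4 ± 3.88 CPM with groups apart (edgeR adjusted p = 0.0579). Of 26 other hnRNP-type genes 3 fell and 0 rose (median -0.20): FUBP1, a single-strand DNA and RNA binder, from 74.1 ± 3.96 to 49.0 ± 7.57 CPM, TARDBP, which encodes TDP-43, from 153 ± 8.81 to 106 ± 13.7 CPM, and the helicase gene DDX5 from 452 ± 18.8 to 303 ± 50.6 CPM. Of 26 further alternative splicing regulators RBM25 fell, from 126 ± 2.92 to 90.8 ± 17.6 CPM. Of 20 nonsense-mediated decay factors SMG8 fell, from 26.6 ± 3.26 to 18.8 ± 0.809 CPM, and the median was 0.03. Over these lists 16 of 169 genes fell and 1 rose, and 4.09% and 5.71% of all tested genes did. Without leptin replicate 1, edgeR called 53 of 169 lower and 13 higher, where 13.5% and 16.0% of all genes tested in that fit were. Without leptin replicate 2 it called 8 lower, where 2.32% of all genes were, and with the GC trend removed 6, where 2.82% were. Without Control replicate 2 it called 1 lower (0.946% of all genes). Without Control replicate 1, Control replicate 3 or leptin replicate 3 it called 0 lower (24 to 36 at an unadjusted p under 0.05), where 0.371%, 0.548% and 0.748% of all genes were. Other than without leptin replicate 1, these fits called 0 of the listed genes higher (2 to 9 at an unadjusted p under 0.05).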

How the data were processed

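RNA of 6 OVCAR8 libraries, 3 Control and 3 Leptin, was measured. The deposited values are raw counts of read pairs over exons per gene of GENCODE release 44, made with featureCounts 2.0.1 without a strand option, per the file headers. Per the submitters' processing notes the build was hg38 and the tools featureCounts 1.5.0-p3 (another version than in the headers), HISAT2 2.0.5 and DESeq2. Read pairs over several genes or places were not counted, which lowers overlapping genes and near-identical copies. Symbols matched for all 62700 IDs. Gene types came from GENCODE release 29 for 58207 IDs and by symbol from RefSeq for 393; the other 4100 had none and could not count as protein coding, though each ID whose symbol matched the rule had a type. GC content came from release 29, for 97.2% of the tested genes.

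The whole table was fitted in R 4.3.3 with edgeR 4.0.16: filterByExpr (minimum count 10, minimum total 15), TMM, robust quasi-likelihood across all genes, Benjamini-Hochberg adjustment, threshold 0.05. CPM use TMM-scaled totals. SE follow from the fold change and F. The GC trend was removed as lowess offsets (span 0.3). Alternatives were other scalings and filters, DESeq2 1.42.0, limma-voom (limma 3.58.1), a replicate block and leave-outs. Fits were also run on simulated data with the same spread in both groups, which these data do not have. No result here rests on that run. Libraries of the same group were not duplicates: their counts differed beyond sampling noise, with 5.24 to 45.4 chi-square units a gene. Every member is accounted for; values in each library are given for those past the threshold, the 3 with the smallest adjusted p in each direction, the 3 highest per length, TRA2A and TRA2B. SRSF1, HNRNPAB and HNRNPU were added to these after their values were seen. Up to 3 called genes per list are named, as group means. The members and lists were chosen with earlier results of these data known. Promoter sequences are RefSeq's (GRCh38.p14). Figures used Python 3.11.15 and matplotlib 3.10.9, permutations SciPy 1.17.1.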

Additional observations from a re-analysis of the deposited data

How the results depend on the processing

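Of the 35 genes, HNRNPLL rose at an adjusted p under 0.05 under every scaling, count filter and tool run on all 6 libraries, with the replicate block and with the GC trend removed. At an adjusted p under 0.01 edgeR called 0 genes of the set higher and 0 lower. Of all 15685 tested genes, 148 rose and 126 (0.803%) fell at that threshold. At an unadjusted p under 0.05, 18 genes of the set were lower and 1 higher, and no share of all tested genes is given for that. The 3 genes that fell became 6 with total counts only (4.9% of all genes tested in that setting fell), 9 with DESeq2 (5.6%), 7 with no filter on low counts (2.92%) and 1 with the GC trend removed (2.82%); the cause was not tested. Leaving out 1 library gave 0 to 2 genes higher and 0 to 22 lower, and with the GC trend also removed 0 to 3 higher and 0 to 13 lower. The 22 and 13 come from leaving out leptin replicate 1, where 13.5% and 12.1% of all genes fell; over the other leave-outs 0.179% to 2.32% did. Nothing in the labels pairs the libraries beyond a number, same-numbered replicates did not deviate together (correlations -0.05, 0.01 and -0.11), and 0 of them correlated best with their own number. With a replicate block 1 gene rose and 2 fell (TRA2B lost its call, adjusted p = 0.0758), where 3.41% of all genes fell. With the GC trend removed and a replicate block HNRNPLL rose and SRSF2 and HNRNPA2B1 fell, where 3.04% fell, and HNRNPAB was not called.

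Signs reversed in 9 genes, none of which passed with all 6 libraries; TRA2A passed, lower, without leptin replicate 1. SRSF9 (0.01 as reported) became -0.0032 with upper-quartile scaling, -0.036 with total counts only, -0.0089 with limma-voom and -0.0078 with the replicate block, and ranged from -0.11 to 0.14 over the leave-outs. With the GC trend removed HNRNPA0 became 0.041 and SRSF6 0.039, and with the replicate block as well 0.036 and 0.039. Over the leave-outs HNRNPUL2 ranged from -0.096 to 0.015 and HNRNPM from -0.155 to 0.012. In leave-outs with the GC trend removed, SRSF4 became 0.014, 0.046 and 0.012 (range from -0.068), HNRNPDL 0.0018 (from -0.23), HNRNPF 0.0055 (from -0.11) and TRA2A 0.083 (from -0.21). There HNRNPA0 became 0.0090, 0.11, 0.0097, 0.012 and 0.14, and SRSF6 0.029, 0.054, 0.033, 0.019, 0.060 and 0.043. The counts of negative differences and of genes below every control without leptin replicate 1 were added after seeing the data. Counts per gene were at least 142, while libraries of a group differed beyond sampling noise: the median SD of log2 CPM was 0.24 with leptin and 0.12 in controls.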
